A study of Mus musculus with 6 samples.

Results

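Proliferation and mitosis genes were examined in RNA from mouse corneas taken 12 months after an open-field blast injury. The set was a fixed list of 39 genes that act in S phase, G2 or mitosis or at the entry into S phase. Each was looked up by its symbol, and all 39 were found among the 22007 names of the deposited tables, 26 of which are dates. Both groups were male C57BL/6J mice with no labelled genetic alteration. OFBI mice were awake when exposed to 1 detonation of C-4 explosive (350 g) at a distance of 3 m. Naive mice were the comparison group, and the labels name no agent for them. There were 3 libraries per group, each made from pooled corneas, with 2 µg of total RNA per library and batch 4 for all 6. Whether each pool came from separate animals is stated only as biological replication.

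Cells that leave rest raise D-type cyclins, which release E2F factors to switch on the genes of DNA replication. MCM helicases are loaded at origins, the DNA is copied once, and a later wave of genes driven by FOXM1 and the MuvB complex supplies the cyclins, kinases and spindle proteins of mitosis. In the adult cornea these genes mark the dividing basal and limbal cells that renew the epithelium, while keratocytes are largely quiescent and endothelial cells hardly divide.

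Promoters of such genes can carry short words that are known for this timing. Windows of 200 bases before the RefSeq start (GRCm38.p6) were found for 32 of the 39 genes and for 27025 genes in all. Foxm1, Kif20a, Aurkb, Tpx2, Mcm4, Ccna2 and Ccnd1 had no entry. The 4 windows shown are examples with matches, from the replication genes (Mcm6) and the mitotic genes (Cdc20, Mki67, Top2a) whose levels are described next. Capitals mark every match on either strand to an E2F-type word (TTTGGCGC, TTTCCCGC, TTTCGCGC or TTTGCCGC), to the CHR word TTTGAA, which reads TTCAAA on the other strand, or to the CCAAT box CCAAT, which reads ATTGG there. The windows lie on the minus strand at chr1:128359706-128359905 (Mcm6), chr4:118437344-118437543 (Cdc20), chr7:135716380-135716579 (Mki67) and chr11:99024190-99024389 (Top2a), and are written 5′ to 3′ towards the start.
Mcm6: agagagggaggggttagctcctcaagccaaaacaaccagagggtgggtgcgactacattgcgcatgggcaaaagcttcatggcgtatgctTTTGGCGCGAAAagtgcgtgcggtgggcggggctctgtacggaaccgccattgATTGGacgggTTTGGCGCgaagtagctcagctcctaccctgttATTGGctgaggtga
Cdc20: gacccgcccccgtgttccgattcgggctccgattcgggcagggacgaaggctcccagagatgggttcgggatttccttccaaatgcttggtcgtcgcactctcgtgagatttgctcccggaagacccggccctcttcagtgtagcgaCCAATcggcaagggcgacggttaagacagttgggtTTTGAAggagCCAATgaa
Mki67: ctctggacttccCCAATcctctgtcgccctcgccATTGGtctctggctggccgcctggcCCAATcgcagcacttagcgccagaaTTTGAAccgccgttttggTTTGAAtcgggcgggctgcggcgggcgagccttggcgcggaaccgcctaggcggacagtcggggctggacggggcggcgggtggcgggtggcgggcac
Top2a: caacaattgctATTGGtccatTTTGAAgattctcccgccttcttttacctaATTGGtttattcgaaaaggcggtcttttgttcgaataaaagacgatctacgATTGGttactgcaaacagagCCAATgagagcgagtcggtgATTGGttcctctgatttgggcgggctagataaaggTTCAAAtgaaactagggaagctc

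Mcm6 held 3 E2F-type matches, of which TTTGGCGC at 110 to 103 bases and TTTCGCGC on the other strand at 106 to 99 bases before the start overlap. Cdc20 held TTTGAA at 18 to 13 bases before its start, next to CCAAT boxes at 53 to 49 and 8 to 4. An E2F-type word was present in 4 of 14 windows of G1/S and replication genes (28.6%), in 1 of 18 windows of G2 and mitosis genes (5.56%) and in 1.63% of all windows. The CHR word was present in 1 of 14 (7.14%), 7 of 18 (38.9%) and 12.7% of all windows, and the CCAAT box in 9 of 14 (64.3%), 16 of 18 (88.9%) and 30.0%. The windows of Birc5, Ccne1, Cdt1, E2f1, Nusap1 and Tyms held no match to any of these words. A match describes these letters only and is not a measured binding site.

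Sequencing depth differed strongly between the groups. Naive libraries held 41971752 to 47809779 estimated counts and OFBI libraries 3410476, 3355422 and 1173472, a ratio of group means of 16.7. Depth and blast exposure cannot be told apart in this design. Levels are given as CPM, the library-size-normalised count scaled by TMM factors, and tests are edgeR's quasi-likelihood test over 13941 genes with a Benjamini-Hochberg adjusted p below 0.05. Summed CPM of corneal epithelial markers such as Krt12 and Krt5 was 57519 to 75765 in OFBI and 28814 to 29854 in Naive corneas, with 3 of 7 called higher and 1 lower. Basal and limbal markers such as Krt15 and Itgb4, which mark the layer that holds the dividing cells, summed to 4945 to 5790 and 3469 to 3665 CPM. Krt15 was higher and carried most of that difference, Trp63 was lower (log2 fold change -1.08, adjusted p = 0.0147 in edgeR), and 3 of 6 values were negative (median -0.20). Keratocyte markers such as Col5a1 and Aldh1a1 summed to 724 to 939 and 527 to 550 CPM. Col5a1 and Thy1 were higher, Dcn and Ptgds were lower (log2 fold changes -1.46 and -1.63), and 5 of 7 values were negative (median -0.77). Kera was at 0 in OFBI replicates 1 and 3, where the Naive level would have given 34.9 and 11.5 counts. The value of 11.5 is under the 12 counts, or 3 fragments, taken as the limit for a 0. Of 5 endothelial markers Slc4a11 and Car3 were lower (log2 fold changes -2.29 and -2.01, adjusted p = 0.0233 and 0.0198 in edgeR), none was higher, and the sums were 295 to 460 CPM in OFBI and 503 to 566 CPM in Naive libraries. Some epithelial and some stromal markers were detected in all 6 libraries. Gpha2 of the basal and limbal list was at 0 in OFBI replicate 3, where the Naive level would have given 19.5 counts. The conjunctival list was led by Krt13 and Krt4, with 2 of 4 tested called higher and none lower. It summed to 3857 to 5356 CPM in OFBI and 1654 to 1701 CPM in Naive libraries. Its goblet cell marker Muc5ac was at 0 in all OFBI libraries, where the Naive level would have given at most 0.845 counts, so its 0 carries no information at this depth. Lymphocyte markers led by Cd2 and Lck summed to 25.9 to 212 CPM in OFBI and 4.43 to 6.17 in Naive libraries, with 5 of 6 tested called higher. Cd79a and Ms4a1 were at 0 in OFBI, where the Naive level would have given at most 0.107 and 0.0930 counts. Macrophage and leukocyte markers such as Lyz2 and Ptprc summed to 83.2 to 128 and 80.7 to 83.9 CPM, erythroid markers such as Hba-a1 and Hba-a2 to 13.1 to 27.5 and 61.3 to 76.3 CPM, and testis germ cell markers such as Sycp3 and Prm1 were at 0 throughout. Hepatocyte markers such as Alb and Ttr summed to 150 to 932 and 30.4 to 41.6 CPM, highest in OFBI replicate 3, the shallowest library, which also had the most lymphocyte marker signal. The part of these differences in the results for the proliferation genes was not tested. In such bulk libraries, fewer cells of a type and less RNA per cell cannot be told apart.

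In all, 3 genes rose in OFBI corneas and none fell. Cdc20, the activator of the anaphase-promoting complex, Aurkb, the kinase of the chromosomal passenger complex, and Ccnd1, cyclin D1 of the G1 phase, were the 3 genes that rose. All 39 genes passed the filter on low counts, so the calls were 3 higher (7.69%) against 8.41% of all tested genes, and 0 lower against 10.4% of all tested genes. At an unadjusted p below 0.05, 5 of the 39 were higher (12.8%, against 14.4% of all tested genes) and 3 lower (7.69%, against 18.5%). DESeq2 called 5 higher (12.8%, against 13.3% of all tested genes) and 1 lower (2.56%, against 13.1%). The shares called higher were thus near those of all genes. The median log2 fold change of the 39 genes was -0.21, against -0.20 for all tested genes, and 27 of the 39 (69.2%) had a negative value against 59.1% of all tested genes. The 2 groups did not overlap in 6 genes that were higher (15.4%, against 16.4% of all tested genes) and in 6 that were lower (15.4%, against 29.9%).

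**Figure D1:**
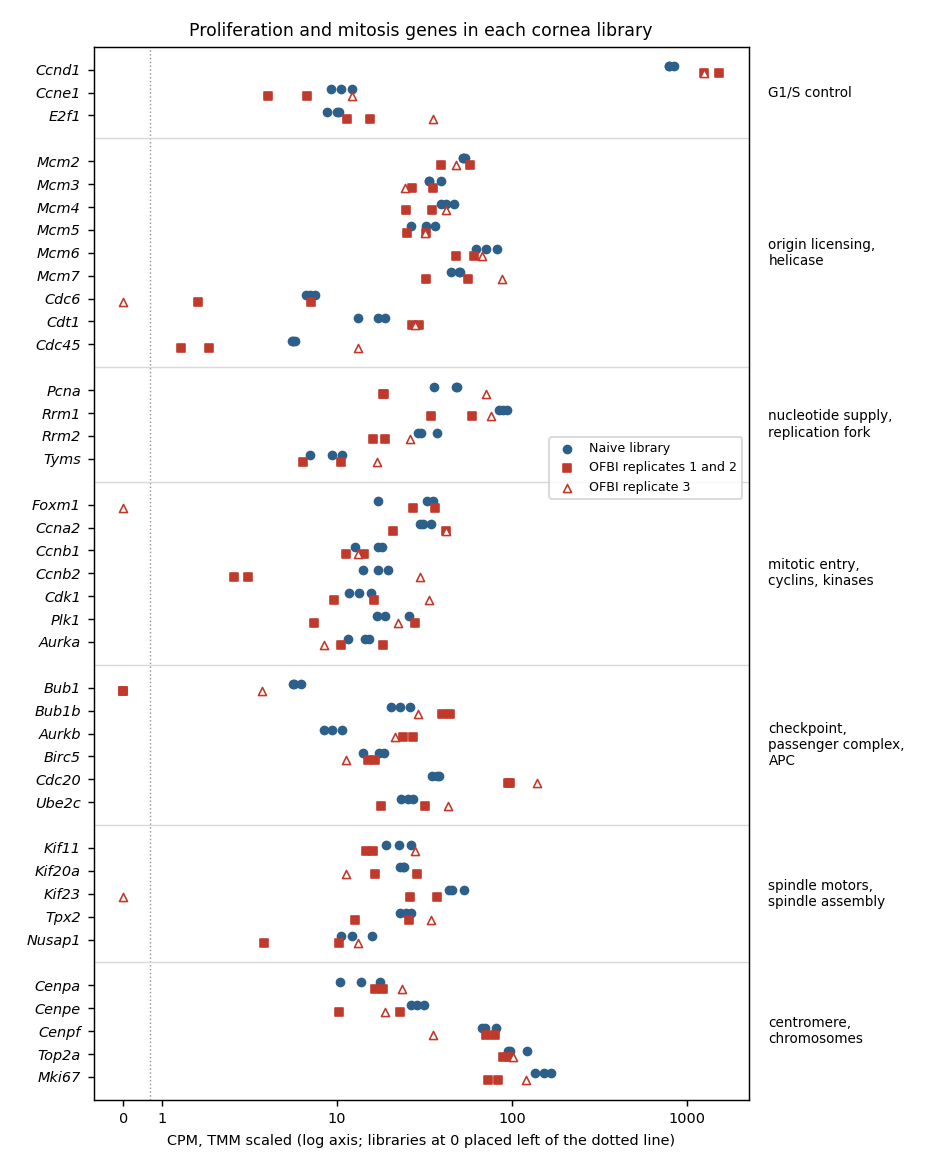
TMM-scaled CPM of each of the 39 genes (log axis) in each of the 3 Naive and 3 OFBI libraries, 1 point per library, with genes ordered by role. Ccnd1 stands above all others at 787 to 1530 CPM, and the OFBI points of most genes are spread more widely than the Naive points.

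**Figure D2:**
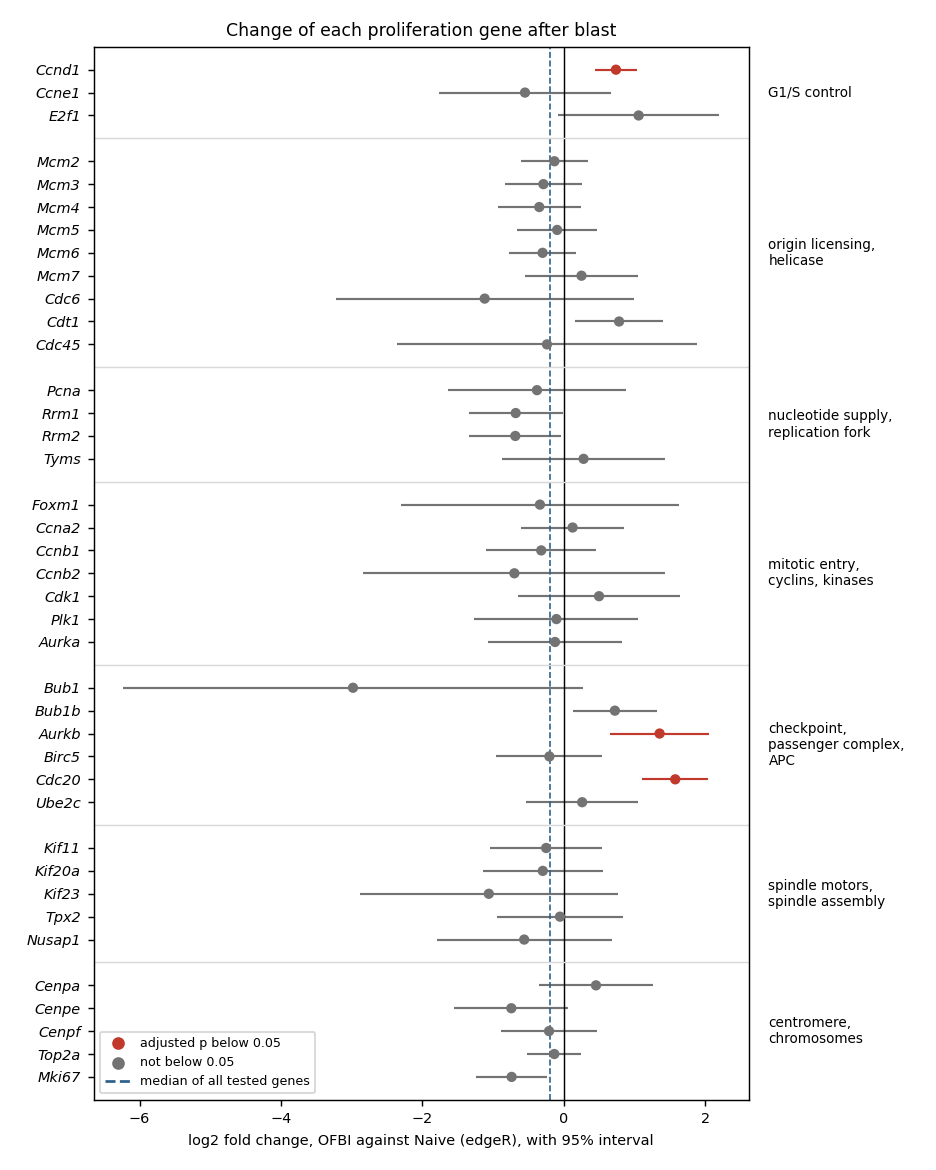
Log2 fold change of OFBI against Naive for each gene (edgeR, point) with its 95% interval (line), and the median of all tested genes as a dashed line. Cdc20, Aurkb and Ccnd1 passed an adjusted p of 0.05, and the other 36 genes did not.

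At the entry into S phase, Ccnd1 rose and the remaining pair of genes did not pass the test. Ccnd1 (chr7:144929931-144939925, minus strand, GRCm38) encodes cyclin D1, the partner of CDK4 and CDK6 that starts inactivation of the retinoblastoma protein. It had 1256, 1530 and 1258 CPM in OFBI replicates 1, 2 and 3 and 845, 796 and 787 CPM in Naive replicates 1, 2 and 3. Every OFBI library was above every Naive library. Its mean was 1348 ± 158 CPM in OFBI and 809 ± 31.0 CPM in Naive corneas (SD, 3 libraries each), and the edgeR log2 fold change was 0.74 (SE 0.13, adjusted p = 0.0164). E2f1, a transcription factor that cyclin D1 activity releases, had 11.4, 15.4 and 35.5 CPM in OFBI and 9.96, 8.71 and 10.3 CPM in Naive libraries. The groups were apart only by the gap between 10.3 and 11.4 CPM, OFBI replicate 3 was the highest, and edgeR gave a log2 fold change of 1.06 (SE 0.48, adjusted p = 0.179). Ccne1, cyclin E1, which drives the start of replication with CDK2, had 4.02, 6.72 and 12.2 CPM in OFBI and 9.21, 12.2 and 10.6 CPM in Naive libraries, and the groups overlapped (log2 fold change -0.55, adjusted p = 0.505 in edgeR).

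Per kilobase of each gene's longest transcript, Ccnd1 had the highest Naive level of the 39 genes at 216 CPM per kb. Pcna followed at 29.1, Cdc20 at 20.6 and Top2a at 20.04 CPM per kb. Cdc6 was the lowest at 1.47 CPM per kb. Because Ccnd1 outweighed the other genes, the summed level of the 39 genes was 2525 ± 143 CPM in OFBI and 2078 ± 79.2 CPM in Naive corneas, but 1177 ± 162 and 1268 ± 48.2 CPM without Ccnd1 (SD, 3 libraries each). Without Ccnd1 the OFBI sums were 1105, 1063 and 1363 CPM and the Naive sums 1323, 1248 and 1234 CPM, so the groups overlapped.

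None of the 9 genes of origin licensing and the replicative helicase passed the test. The 6 MCM genes, which encode the subunits of the helicase ring, had log2 fold changes of -0.35 to 0.25. Mcm6 had 47.6, 60.5 and 67.3 CPM in OFBI and 62.03, 70.7 and 82.0 CPM in Naive libraries. Mcm7 had 32.5, 56.0 and 87.9 CPM in OFBI and 50.4, 44.8 and 50.2 CPM in Naive libraries. Mcm2 had 39.3, 57.9 and 47.7 CPM in OFBI and 52.6, 53.8 and 52.6 CPM in Naive libraries. In each of these 3 genes the groups overlapped, and Mcm7 in OFBI was spread from the lowest to the highest value of all 6 libraries. For 5 of the 6 MCM genes the 95% interval of the log2 fold change lay within -1 and 1, which means that a change of 2-fold or more was outside the interval; over all 39 genes this held for 10 (25.6%), against 22.2% of all tested genes.

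Cdt1, which loads the MCM ring with Cdc6, had 29.4, 26.9 and 28.1 CPM in OFBI and 18.8, 13.2 and 17.1 CPM in Naive libraries. The groups were apart and the OFBI libraries close together, but edgeR gave an adjusted p of 0.0826 for a log2 fold change of 0.78 (SE 0.26), while DESeq2 called it higher (adjusted p = 0.0128). Cdc6 had 7.11, 1.60 and 0 CPM in OFBI and 6.66 to 7.51 CPM in Naive libraries. Cdc45, which joins the ring to form the active helicase, had 1.85, 1.28 and 13.1 CPM in OFBI and 5.53 to 5.71 CPM in Naive libraries, so that OFBI libraries lay on both sides of a narrow Naive range.

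In the group of nucleotide supply and the replication fork, 3 of 4 genes had negative values and none passed the test. Rrm1 and Rrm2 encode the subunits of ribonucleotide reductase, which makes deoxyribonucleotides. Rrm1 had 59.4, 34.3 and 75.8 CPM in OFBI and 89.4, 84.5 and 93.2 CPM in Naive libraries. Rrm2 had 18.9, 16.0 and 26.2 CPM in OFBI and 37.1, 30.1 and 29.0 CPM in Naive libraries. For both, every OFBI library was below every Naive library, and edgeR gave log2 fold changes of -0.68 (SE 0.28, adjusted p = 0.142) and -0.69 (SE 0.28, adjusted p = 0.134). Pcna, the sliding clamp of the DNA polymerases, had 18.5, 18.2 and 71.1 CPM in OFBI and 48.5, 48.1 and 35.9 CPM in Naive libraries. OFBI replicates 1 and 2 were below all Naive libraries and OFBI replicate 3 was above them (log2 fold change -0.38, SE 0.54, adjusted p = 0.671 in edgeR). Tyms, thymidylate synthase, overlapped between the groups at 6.40 to 16.8 CPM in OFBI and 6.96 to 10.6 CPM in Naive libraries.

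Among the 7 genes of mitotic entry, 2 had positive and 5 negative values, none passed the test and the groups overlapped in all 7. Ccna2, cyclin A2 of S phase and G2, had 41.7, 20.8 and 42.1 CPM in OFBI and 29.8, 34.3 and 31.0 CPM in Naive libraries. Foxm1, the transcription factor of the mitotic genes, had 36.2, 27.2 and 0 CPM in OFBI and 35.4, 32.8 and 17.3 CPM in Naive libraries. Plk1, a kinase of mitotic entry and spindle assembly, had 27.8, 7.36 and 22.4 CPM in OFBI and 25.7, 18.8 and 16.9 CPM in Naive libraries. OFBI replicate 3 listed no count of Foxm1, where the mean Naive level would have given 30.5 counts. Cdk1, the kinase that drives mitosis, had 9.58, 16.3 and 33.7 CPM in OFBI and 11.7 to 15.6 CPM in Naive libraries. Its partner Ccnb1 had 11.2 to 14.2 CPM in OFBI and 12.6 to 18.2 CPM in Naive libraries, and Ccnb2 had 3.09, 2.56 and 29.9 CPM in OFBI and 14.1, 17.1 and 19.5 CPM in Naive libraries. Aurka, the kinase of the spindle poles, had 8.42 to 18.2 CPM in OFBI and 11.6 to 15.3 CPM in Naive libraries.

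Of the 6 genes of the spindle checkpoint, the passenger complex and the anaphase-promoting complex, 2 rose. Cdc20 (chr4:118432901-118437352, minus strand, GRCm38) activates the anaphase-promoting complex and is the protein that the checkpoint holds back. It had 95.2, 98.0 and 138 CPM in OFBI replicates 1, 2 and 3 and 37.1, 35.0 and 38.5 CPM in Naive replicates 1, 2 and 3. The lowest OFBI library was above the highest Naive library, and OFBI replicate 3 was the highest of all. The means were 111 ± 24.2 CPM in OFBI and 36.9 ± 1.73 CPM in Naive corneas (SD, 3 libraries each), and the edgeR log2 fold change was 1.57 (SE 0.20, adjusted p = 0.00893). The Cdc20 locus overlaps Elovl1 on the opposite strand; the sources used here do not say whether counting used strand, and Elovl1 itself had 68.0 CPM in OFBI and 68.7 CPM in Naive corneas (log2 fold change -0.0040, adjusted p = 0.991 in edgeR).

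Aurkb (chr11:69045647-69051664, plus strand, GRCm38) encodes the kinase that corrects faulty attachments of chromosomes to the spindle. It had 27.2, 23.7 and 21.5 CPM in OFBI replicates 1, 2 and 3 and 10.7, 8.39 and 9.36 CPM in Naive replicates 1, 2 and 3. The groups did not overlap, and both were narrow. The means were 24.1 ± 2.87 CPM in OFBI and 9.49 ± 1.17 CPM in Naive corneas (SD, 3 libraries each), and the edgeR log2 fold change was 1.35 (SE 0.30, adjusted p = 0.0270). Birc5, survivin, which sits in the same complex as Aurkb, had 11.2 to 16.4 CPM in OFBI and 14.0 to 18.5 CPM in Naive libraries, with a log2 fold change of -0.21 (adjusted p = 0.703 in edgeR). Of the other passenger proteins, read after their values were seen, Incenp rose (log2 fold change 1.02, adjusted p = 0.0307 in edgeR) and Cdca8 had a log2 fold change of 0.12 (adjusted p = 0.859 in edgeR).

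Bub1b, a component of the checkpoint complex that binds Cdc20, had 44.2, 40.02 and 29.0 CPM in OFBI and 26.3, 20.4 and 22.8 CPM in Naive libraries. The groups did not overlap, but edgeR gave an adjusted p of 0.0902 for a log2 fold change of 0.72 (SE 0.25). The adjusted p of Bub1b was 0.0115 in DESeq2 and 0.114 in limma-voom. Ube2c, the ubiquitin-conjugating enzyme of the anaphase-promoting complex, had 31.8, 17.9 and 43.0 CPM in OFBI and 27.0, 25.6 and 23.3 CPM in Naive libraries, and the groups overlapped. Bub1, a checkpoint kinase at the kinetochore, was listed with 0, 0 and 4 counts in OFBI replicates 1, 2 and 3, while Naive libraries held 5.58 to 6.21 CPM. The 4 counts may stand for a single fragment. On that reading, with the libraries of each group pooled, the Naive level was 10.8 times the OFBI level. The 95% exact binomial (Clopper-Pearson) interval of this ratio for counting error was 1.92 to 429. The mean of the libraries was 1.25 CPM in OFBI and 5.83 CPM in Naive corneas, and the edgeR log2 fold change was -2.98 (SE 1.38). The adjusted p of Bub1 was 0.184 in edgeR, 0.245 in DESeq2 and 0.0478 in limma-voom.

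In edgeR the 3 calls were lost with fewer Naive libraries. Without any 1 of the Naive libraries the edgeR adjusted p was 0.0527 to 0.0634 for Cdc20, 0.0654 to 0.0905 for Ccnd1 and 0.0973 to 0.146 for Aurkb, whereas DESeq2 and limma-voom, added after the data were seen, called all 3 each time. Aurkb also lost its call when the replicate number was added as a block (adjusted p = 0.157 in edgeR).

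All 5 genes of the spindle had negative values, and none passed the test; after a correction for GC content and length 4 of the 5 values were positive. Kif23, a motor of the central spindle and of cytokinesis, had 26.3, 37.1 and 0 CPM in OFBI and 53.4, 45.4 and 43.5 CPM in Naive libraries. Tpx2, which activates Aurka on spindle microtubules, had 12.7, 25.9 and 34.6 CPM in OFBI and 24.8, 26.5 and 22.8 CPM in Naive libraries. Kif20a, a motor of cytokinesis, had 16.4, 28.5 and 11.2 CPM in OFBI and 22.8, 23.96 and 24.1 CPM in Naive libraries. Kif23 was the 1 spindle gene whose groups did not overlap, and OFBI replicate 3 held no count of it where the Naive level would have given 50.7 counts (log2 fold change -1.06, SE 0.77, adjusted p = 0.388 in edgeR). Kif11, the motor that separates the spindle poles, had 14.7 to 28.1 CPM in OFBI and 19.0 to 26.4 CPM in Naive libraries, and Nusap1, a microtubule-bundling protein, had 3.84 to 13.1 and 10.5 to 16.0 CPM.

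Of the 5 genes of the centromere and chromosome structure, none passed the test. Mki67, the proliferation marker that coats mitotic chromosomes, had 83.8, 72.7 and 120 CPM in OFBI and 168, 153 and 135 CPM in Naive libraries. Every OFBI library was below every Naive library, with OFBI replicate 3 the nearest. The log2 fold change was -0.74 (SE 0.21), and the adjusted p was 0.0535 in edgeR, 0.0142 in DESeq2 and 0.0368 in limma-voom. After the correction for GC content and length the log2 fold change of Mki67 was -0.28 (adjusted p = 0.633 in edgeR).

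Top2a, the topoisomerase that untangles sister chromosomes, had 88.4, 96.04 and 102 CPM in OFBI and 121, 94.6 and 98.0 CPM in Naive libraries. The groups overlapped, and the 95% interval of its log2 fold change of -0.14 ran from -0.52 to 0.25. Cenpf, a kinetochore protein, had 70.8, 79.7 and 35.5 CPM in OFBI and 81.5, 67.6 and 70.1 CPM in Naive libraries, and OFBI replicate 3 was the lowest. Cenpe, the kinetochore motor, was lower in every OFBI library, at 10.2 to 22.9 CPM against 26.3 to 31.3 CPM (adjusted p = 0.181 in edgeR), and Cenpa, the centromeric histone, had 16.4 to 23.4 and 10.5 to 17.7 CPM.

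Summed by role, the checkpoint group stood at 219 ± 26.4 CPM in OFBI and 117 ± 4.39 CPM in Naive corneas (SD, 3 libraries each), and the G1/S group at 1376 ± 153 and 830 ± 30.0 CPM. Cdc20 was the largest contributor to the first of these sums and Ccnd1 to the second. The licensing group stood at 294 ± 42.7 and 312 ± 8.65 CPM, the nucleotide and fork group at 124 ± 59.3 and 174 ± 10.4 CPM, and the mitotic entry group at 132 ± 24.8 and 141 ± 7.17 CPM. The spindle group stood at 92.9 ± 15.2 and 131 ± 1.27 CPM and the centromere and chromosome group at 286 ± 11.7 and 372 ± 36.1 CPM. In the spindle and in the centromere and chromosome groups every OFBI sum was below every Naive sum, and in the checkpoint and G1/S groups every OFBI sum was above. The largest drop in the spindle group was that of Kif23 (mean 21.1 CPM in OFBI and 47.4 CPM in Naive libraries), which was at 0 in OFBI replicate 3. The other spindle genes overlapped between the groups. In the centromere and chromosome group Mki67 had the largest drop (mean 92.1 CPM in OFBI and 152 CPM in Naive libraries).

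**Figure D3:**
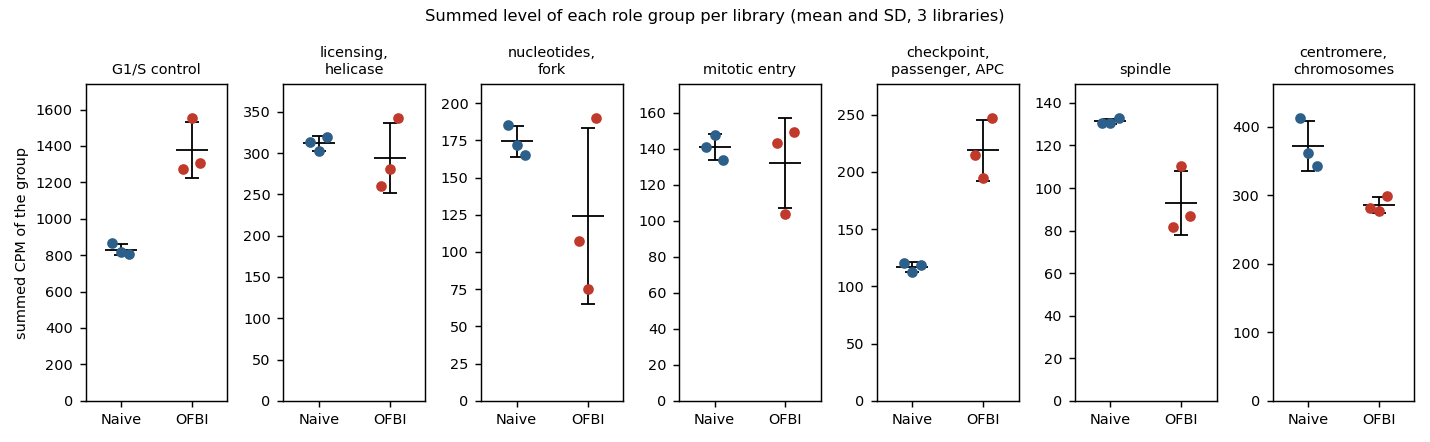
Summed CPM of each role group in each library (points) with the mean and SD of 3 libraries, for Naive and OFBI corneas, each panel on its own axis from 0. The checkpoint sums were 195 to 247 CPM in OFBI and 112 to 121 CPM in Naive libraries, while the licensing and mitotic entry sums overlapped.

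The OFBI libraries differed among themselves more than the Naive libraries did. Over the 39 genes the median coefficient of variation was 37.4% in OFBI and 12.4% in Naive libraries. The 39 genes together had 7636, 8099 and 2802 counts in OFBI replicates 1, 2 and 3, against 91730 to 109758 in Naive libraries. OFBI replicate 3 was the highest of the OFBI libraries for 22 genes and the lowest for 10, and it listed Cdc6, Foxm1 and Kif23 at 0. At the mean Naive level Cdc6 would have had 7.53 counts there, which is under the 12 counts, or 3 fragments, taken as the limit that a count of 0 allows.

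**Figure D4:**
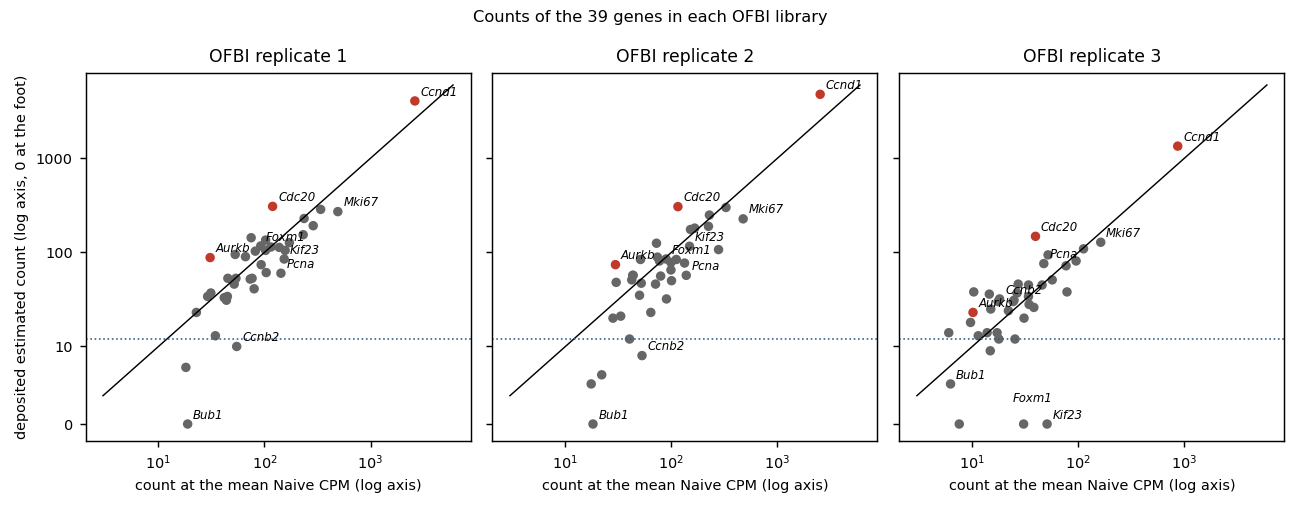
Deposited estimated count of each of the 39 genes in each OFBI library (vertical, log axis, 0 at the foot) against the count that the mean Naive CPM would give at that library's depth (horizontal, log axis). Bub1 was at 0 in OFBI replicates 1 and 2, and Cdc6, Foxm1 and Kif23 were at 0 in OFBI replicate 3.

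Without OFBI replicate 3, edgeR called 4 of the 39 genes higher (10.3%, against 10.8% of all tested genes) and 7 lower (17.9%, against 13.8% of all tested genes). Bub1b joined Ccnd1, Aurkb and Cdc20 (log2 fold change 0.85, adjusted p = 0.0211). The 7 lower genes were Ccnb2 (-2.59, adjusted p = 0.00602), Cdc45 (-1.84, adjusted p = 0.0242), Pcna (-1.27, adjusted p = 0.0112), Mki67 (-0.97, adjusted p = 0.00922), Rrm1 (-0.94, adjusted p = 0.0342), Rrm2 (-0.89, adjusted p = 0.0279) and Bub1, for which both remaining libraries were at 0 and the level was at least 3.09-fold lower than in Naive corneas against a floor of 3 fragments over both libraries. With all 6 libraries DESeq2 called Mki67 lower, and limma-voom called Mki67 and Bub1 lower. In edgeR 0 of the 39 genes were lower with all 6 libraries, against 10.4% of all tested genes. In edgeR that count thus depended on OFBI replicate 3. OFBI replicate 3 had 1173472 counts, the fewest, and the highest hepatocyte and lymphocyte marker sums, and the part of these in the change was not tested.

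GC content and transcript length also moved the values. The median GC content of the transcripts was 48.4% for the 39 genes and 50.004% for all tested genes. With the trend of each library over GC content and length removed, the median log2 fold change of the 39 genes was 0.25 and that of all tested genes 0.06, and 17 of the 39 values changed sign. Cdc20 (1.70), Aurkb (1.61), Ccnd1 (1.06) and Bub1b (1.01) were then higher at an adjusted p of 0.0419 to 0.0459 in edgeR, 4 of 39 against 5.21% of all tested genes, and none was lower, against 4.88%.

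**Figure D5:**
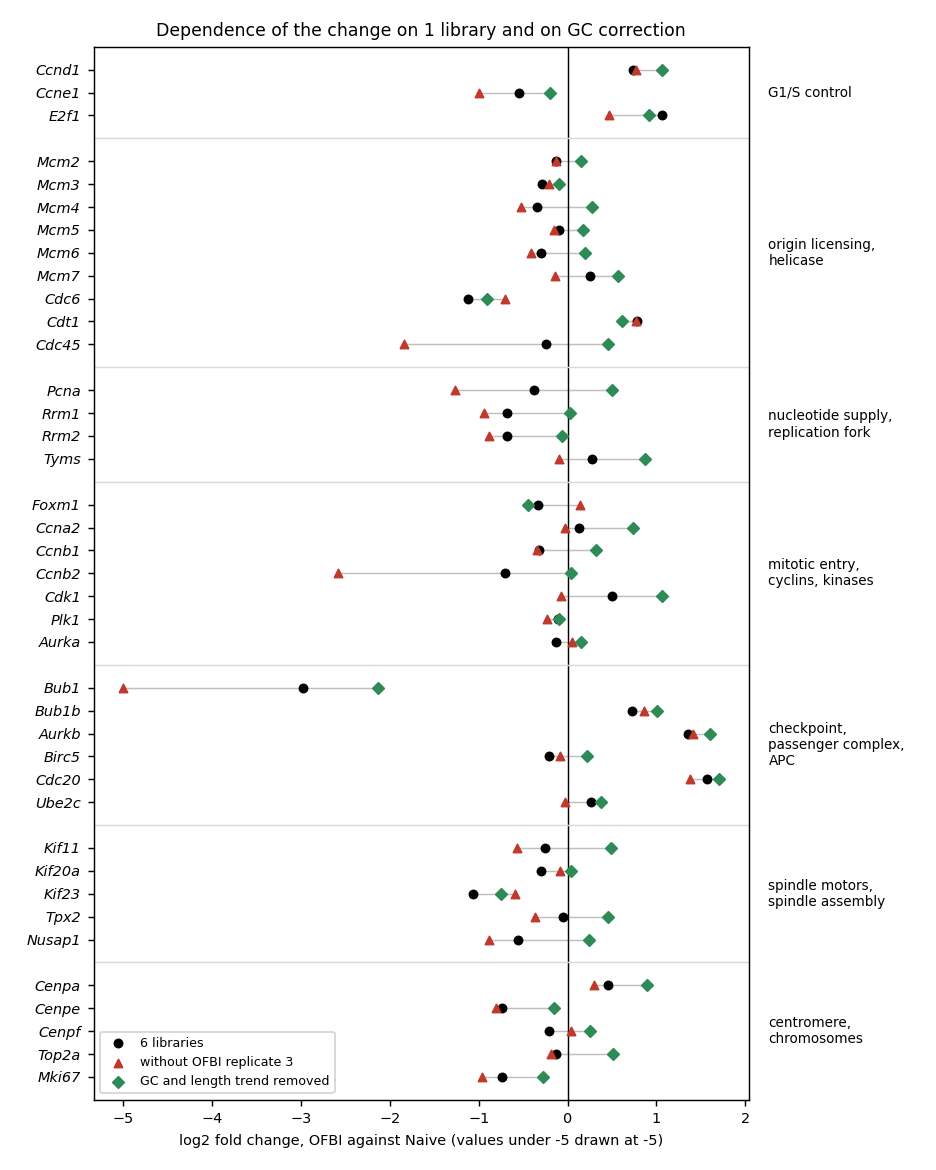
Log2 fold change of each gene with all 6 libraries, without OFBI replicate 3 and after the trend over GC content and length was removed (values under -5 are drawn at -5). Cdc20, Aurkb and Ccnd1 were positive in all 3 fits, while Pcna and Cdc45 ran from -1.27 and -1.84 without OFBI replicate 3 to 0.50 and 0.45 after the correction.

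Other genes of the cell cycle were read from 3 lists with 156 symbols, of which 154 were in the tables and tested. Of these 9 were higher (5.84%, against 8.41% of all tested genes) and 8 lower (5.19%, against 10.4%), and the median log2 fold change was -0.24. Among 46 other replication genes 3 were higher and 2 lower (median -0.43). Orc4, a subunit of the origin recognition complex, had 100.2, 117 and 195 CPM in OFBI and 25.0, 20.5 and 19.7 CPM in Naive libraries. Every OFBI library was above every Naive library (log2 fold change 2.65, SE 0.28, adjusted p = 0.00666 in edgeR). The other Orc subunits, read after their values were seen, had negative values. Orc1 was at 0 in all OFBI libraries and called lower (adjusted p = 0.0285 in edgeR), at least 1.07-fold against a floor of 3 fragments. Orc2, Orc3 and Orc5 had log2 fold changes of -1.04, -1.825 and -1.87 (adjusted p = 0.0970, 0.185 and 0.184 in edgeR), with groups apart. Orc6 overlapped between the groups (log2 fold change -0.61, adjusted p = 0.641 in edgeR). Chaf1a, the large subunit of a chromatin assembly factor, was higher (87.7 ± 27.8 and 31.8 ± 2.69 CPM, SD, 3 libraries each). Its log2 fold change was 1.45 (SE 0.25, adjusted p = 0.0169 in edgeR). Mcm8, a helicase of repair by recombination, was at 0 in all OFBI libraries and at 5.18 to 6.56 CPM in Naive libraries, at least 3.68-fold lower against a floor of 3 fragments over the OFBI group, which is 1.62 CPM.

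Among 66 other mitosis genes 4 were higher and 5 lower (median -0.22). Stmn1, which destabilises microtubules, was higher at 103 ± 11.1 and 47.2 ± 6.83 CPM (SD, 3 libraries each; log2 fold change 1.13, SE 0.18, adjusted p = 0.0137 in edgeR). Ttk, the kinase that starts the spindle checkpoint, and Cenpn, a centromere protein, were at 0 in all OFBI libraries, at least 2.94-fold and 2.06-fold lower on the same floor. Of the 8 lower genes in the 3 lists, 5 were at 0 in every OFBI library. Among 42 other regulators 2 were higher and 1 lower (median -0.08). Cdk6, a partner of cyclin D1, rose from 155 ± 4.77 to 250 ± 28.0 CPM and Wee1, the kinase that holds back Cdk1, from 44.4 ± 4.39 to 77.3 ± 9.42 CPM (SD, 3 libraries each; adjusted p = 0.0222 and 0.0282 in edgeR). E2f7, a repressor of E2F targets, fell from 63.2 ± 2.47 to 33.9 ± 6.09 CPM (adjusted p = 0.0280 in edgeR). Read after their values were seen, Cdk4, Fzr1, Ccnd2 and Ccnd3 did not pass the test. Cdk4, another partner of cyclin D1, had a log2 fold change of 0.12 (adjusted p = 0.746 in edgeR). Fzr1, the other activator of the anaphase-promoting complex, had 0.03 (adjusted p = 0.926 in edgeR). The other D-type cyclins Ccnd2 and Ccnd3 had -0.62 and 1.06 (adjusted p = 0.184 and 0.104 in edgeR).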

How the data were processed

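Mouse cornea RNA was measured in 3 OFBI and 3 Naive libraries made with a stranded kit, per the labels' protocols. The authors deposited 1 table per library of estimated counts per gene, whole numbers not scaled for depth. That about 4 counts stand for 1 fragment was inferred from the values. Build GRCm38 and the tools HISAT2, StringTie, FastQC and DESeq2 stand in the submitters' processing notes, without version or role. The sources used here do not give the annotation or the strand setting. The binomial interval of Bub1 and the floors cover counting error only.

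Rows of the same symbol were summed (64 rows on 31 symbols). The 26 rows with dates for names, at most 0.148% of a library, were kept under placeholder names. They are among the 22007 names and entered the library totals. OFBI was tested against Naive with edgeR 4.0.16 in R 4.3.3 (filterByExpr, TMM factors, quasi-likelihood test, group as the only term), with Benjamini-Hochberg adjustment over all 13941 tested genes at 0.05 and two-sided. The procedure was run on simulated counts with the same spread for every gene and both groups. Those counts cannot show how it performs on the uneven spread of these libraries. CPM used TMM-scaled library sizes. Positions, lengths and GC content came from GENCODE M21 on GRCm38 and promoters from RefSeq GRCm38.p6. Length and GC content were those of the longest transcript of each gene. The 95% interval of a log2 fold change used the total degrees of freedom of edgeR, prior and residual together. Alternatives were DESeq2 1.42.0, limma-voom (limma 3.58.1), other scalings and filters, thinning, counts divided by 4, a trend over GC content and length removed with mgcv 1.9.3, a replicate block and each library left out; DESeq2 and limma-voom without each library were added after the data were seen. The genes and lists were chosen with earlier results of these data known. Values per library are given for the genes that passed the test and the 3 most abundant of each role. Outside that rule they are given, in full or in part, for Cdt1, Cdc6, Cdc45, Cdk1, Ccnb2 and Bub1. Of each other cell-cycle list the 3 with the smallest p, and of each marker list the 2 most abundant, are named. Other marker genes named for their calls, and genes said to have been read so, were chosen after their values were seen. Some markers are not reported here, and the endothelial counts and sums leave them out. Of the marker symbols Tf was not matched, and of the other cell-cycle symbols Sgol1 and Sgol2a.

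Counts of replicates differed by more than sampling noise (chi-square per gene 16.7 to 58.8), so no library was a copy of another. Libraries with the same replicate number did not deviate together (correlations -0.0027, -0.0175 and 0.0078), so the numbers were not used as pairs. P-values measure the spread between these pools.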

Additional observations from a re-analysis of the deposited data

How the results depend on the processing

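Direction and side of the threshold of Cdc20, Ccnd1 and Aurkb held under each alternative of scaling, filter, thinning, tool and GC correction. The exceptions were the replicate block for Aurkb and each left-out Naive library for all 3 in edgeR, and limma-voom lost Aurkb without OFBI replicate 1 or 2. At an adjusted p of 0.01 Cdc20 alone was called. Without Naive replicate 2, edgeR called 0 of 12094 genes, although 2441 had p below 0.05 before adjustment; DESeq2 called 1010 higher and 479 lower and limma-voom 1037 and 529. DESeq2 and limma-voom with a library left out were chosen after seeing the data, and the ranges over left-out libraries include all 3 tools. Scaling by library size alone moved the median over all genes (log2 fold change) from -0.20 to -0.40, and higher genes made up 29.8% of calls against 44.8%. That share was 64.8% with Naive libraries thinned, 67.0% with all libraries thinned and 68.1% under the replicate block. Depth limits genes under 12 counts, which were 3, 4 and 5 of the 39 genes in OFBI replicates 1, 2 and 3. The cause of the changes that follow was not tested.

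Genes called higher numbered 1173, against 1854 with DESeq2, 727 with the GC trend removed and 191 at 0.01, and 0 to 2419 with a library left out. Genes called lower numbered 1446, against 910 without a filter, 580 with Naive thinned, 460 with all thinned, 680 with the GC trend removed and 31 at 0.01, and 0 to 2891 with a library left out. Of the 39 genes 3 were higher, against 5 with DESeq2, 5 with counts divided by 4 and 1 at 0.01, and 0 to 5 with a library left out. Of the 39 genes 0 were lower, against 1 with DESeq2, 2 with limma-voom, 1 with library size alone and 2 with counts divided by 4, and 0 to 8 with a library left out. Of the other cell-cycle genes 9 were higher, against 18 with DESeq2 and 1 at 0.01, and 0 to 24 with a library left out. Of these 8 were lower, against 15 with DESeq2, 2 with Naive thinned, 2 with all thinned, 13 with counts divided by 4, 5 with the GC trend removed and 0 at 0.01, and 0 to 34 with a library left out.

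With the replicate number as a block, 540 genes were higher and 253 lower, 2 and 0 of the 39 genes, and 3 and 0 of the other cell-cycle genes. The numbers do not pair the libraries.

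Log2 fold changes that changed sign with the GC trend removed were Mcm2 0.15, Mcm4 0.28, Mcm5 0.18, Mcm6 0.20, Cdc45 0.45, Pcna 0.50, Rrm1 0.026, Ccnb1 0.32, Ccnb2 0.043, Aurka 0.15, Birc5 0.22, Kif11 0.49, Kif20a 0.034, Tpx2 0.45, Nusap1 0.24, Cenpf 0.25 and Top2a 0.51. With Naive libraries thinned these were Mcm2 0.0013, Mcm5 0.0023, Plk1 0.082, Aurka 0.0046 and Tpx2 0.050, and with all thinned Mcm2 0.092, Mcm5 0.055, Plk1 0.064, Aurka 0.42 and Tpx2 0.16, with 36 of the 39 genes tested. With library size alone Ccna2 -0.078 changed sign, and with limma-voom Mcm7 -0.068 and Ccna2 -0.00018. With a library left out the edgeR values ran from -0.21 to 0.048 for Mcm5, -0.14 to 0.51 for Mcm7, -1.84 to 0.13 for Cdc45, -0.098 to 0.51 for Tyms, -0.89 to 0.14 for Foxm1, -0.098 to 0.36 for Ccna2, -0.072 to 0.80 for Cdk1, -0.60 to 0.27 for Plk1, -0.56 to 0.049 for Aurka, -0.035 to 0.50 for Ube2c, -0.36 to 0.24 for Tpx2, -0.45 to 0.034 for Cenpf and -0.19 to 0.018 for Top2a.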
